A study of Mus musculus with 9 samples.

Results

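The interleukin-1 (IL-1) family cytokines and receptors were followed in mouse brain tissue after injection of a baculoviral vector. The set was made of 10 genes, namely the cytokines Il1a, Il1b, Il18 and Il33, the inhibitors Il1rn and Il18bp, and the receptors Il1r1, Il1r2, Il1rap and Il1rl1. Every probe set whose single gene symbol in the platform annotation was one of these was taken, which gave 16 of the 45101 probe sets on the array. They covered 9 of the 10 genes, out of 18194 single symbols on the array, since no probe set carried the single symbol Il1rl1 in the annotation used here. A probe set was tested where it lay above the 40th percentile of its own array on at least 3 arrays. This held for 12 of the 16, from 8 genes, and left out the single probe set of Il1a, 1 of 3 for Il1rn, 1 of 2 for Il1r1 and 1 of 5 for Il1rap.

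All mice were adult male immunocompetent BALB/c animals, and each group held 3 mice with 1 array each. The HS group received the vector BV-HSVtk, built on a baculovirus (a virus that infects insects) and purified by high-speed centrifugation. The MC+HS group received BV-HSVtk purified by MC+HS, where membrane chromatography was used as well, and the mock group received Sf9 insect cell medium without baculovirus that had gone through the MC+HS purification. Vector doses were 100000000 particles in 10 µL into each striatum, and the surrounding tissue was taken 2 days later. Because the mock medium went through MC+HS purification only, the vector and the purification cannot be told apart in the comparison of HS with mock. The tissue was bulk brain, so fewer cells of a type and less RNA per cell cannot be told apart in any value below.

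IL-1α and IL-1β bind the receptor chain encoded by Il1r1, which then takes up the accessory chain encoded by Il1rap and signals through the adaptor MyD88 to NF-κB. IL-1β and IL-18 are made as inactive precursors that inflammasome caspases cut, and the family is held in check by a receptor antagonist (Il1rn), a decoy receptor (Il1r2) and a soluble binding protein for IL-18 (Il18bp). In brain, IL-1β is made mainly by microglia and infiltrating myeloid cells, and IL-33 is stored in the nuclei of astrocytes and oligodendrocytes.

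In the limma fits with and without HS replicate 1, the members called against mock were the inhibitors Il18bp and Il1rn and the cytokine Il1b, the latter pair in the fit that leaves that array out. Il18bp was higher on all 6 vector arrays than on all 3 mock arrays, by 6.14-fold for both vectors together. One probe set of Il1rn, which passed the filter through vector arrays alone, was likewise higher on all 6, while its other probe sets were not called, and Il1b was higher on 5 of the 6 vector arrays than on all mock arrays. Those fits called no receptor, accessory chain or decoy receptor and neither Il18 nor Il33 against mock, and no member between the purifications. A fit with array quality weights, whose weights had not converged, called 8 member probe sets for HS. Among them were Il1r1, Il1r2 and 3 of Il1rap. Between the purifications that fit called 2, Il1r1 and 1 of Il1rap. Over all 28257 probe sets tested it called 7776 for HS and 6536 between the purifications.

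One array bears on all of these results. HS replicate 1 had a median correlation with the other arrays of 0.805, where the other 8 had 0.972 to 0.982. Its standard deviation of log2 signals was 1.54 against 2.17 to 2.39, and its 3′ to 5′ signal ratio for Gapdh was 2.00 against 0.865 to 0.932. The signal ratio of the hybridisation controls bioD and bioC was 0.677 on it against 3.35 to 3.67. It was the highest or the lowest of the 9 arrays for 11 of the 16 member probe sets. Counts of called members are therefore given with all 9 arrays and without that array, when HS has n = 2. Differences of single members are given for the fits named beside them. Markers of neurons (6), striatal medium spiny neurons (7) and astrocytes (7) lay above the 40th percentile on all 3 mock arrays for every measured gene, and on HS replicate 1 the medium spiny neuron list was at -2.07 against the mock mean on the log2 scale.

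Values are log2(signal + 16) after each array's median was moved to a common value, and are given in the order of replicates 1, 2 and 3. Tests are limma contrasts over all probe sets that passed the filter, with Benjamini-Hochberg adjustment over them and a threshold of 0.05, and ± is the standard error of the log2 difference. Both vectors against mock means the mean of the HS and MC+HS groups minus mock, and all comparisons with mock share the mock arrays.

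The promoters of the called members are shown because these are the genes that passed a test against mock. The windows hold the 250 bases before a RefSeq transcription start in assembly GRCm38.p6, from the C57BL/6J reference strain and not BALB/c, 5′ to 3′ on the gene's strand, with motif matches in capitals. They lie at chr7:102018233-102018482 on the minus strand for Il18bp, at chr2:24336610-24336859 on the plus strand for the most upstream of 3 starts of Il1rn, and at chr2:129371140-129371389 on the minus strand for Il1b.
Il18bp: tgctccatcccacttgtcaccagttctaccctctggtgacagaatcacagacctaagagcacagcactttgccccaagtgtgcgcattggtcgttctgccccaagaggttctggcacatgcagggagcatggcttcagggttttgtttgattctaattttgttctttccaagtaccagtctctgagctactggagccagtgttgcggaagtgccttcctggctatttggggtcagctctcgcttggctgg
Il1rn: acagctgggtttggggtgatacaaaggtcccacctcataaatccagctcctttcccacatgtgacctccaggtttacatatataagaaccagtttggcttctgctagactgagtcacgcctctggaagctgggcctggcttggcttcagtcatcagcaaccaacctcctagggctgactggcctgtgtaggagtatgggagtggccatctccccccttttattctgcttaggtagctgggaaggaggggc
Il1b: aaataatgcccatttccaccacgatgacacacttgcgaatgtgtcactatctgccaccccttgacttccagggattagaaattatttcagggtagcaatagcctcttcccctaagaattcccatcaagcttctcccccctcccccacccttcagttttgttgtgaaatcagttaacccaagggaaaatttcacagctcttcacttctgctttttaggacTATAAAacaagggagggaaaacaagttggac
Motifs searched on both strands were TATAAA, found in 12.4% of 32851 promoter windows of this length, GAAA repeated after a gap of any 2 bases (2.98%), which is the core of the interferon-stimulated response element, TTCNNNGAA (7.02%) and the κB motif (3.9%). The window of Il1b holds TATAAA from 31 to 26 bases before the start, and that of Il1a, its neighbour on chromosome 2, holds it from 32 to 27 bases before. The windows of Il18bp and of all 3 starts of Il1rn hold none of the 4 motifs. Elsewhere in the family TATAAA occurs in the windows of both starts of Il33, from 203 to 198 and from 29 to 24 bases before the start, and on the opposite strand for Il18, from 175 to 170 bases before. TTCNNNGAA occurs once for Il1r2, from 111 to 103 bases before the start, and the κB motif once for the second start of Il1r1, from 232 to 223 bases before.

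Il18bp encodes the secreted protein that binds and neutralises IL-18. On its probe set 1450424_a_at, the mock arrays read 6.94, 6.99 and 4.71, the HS arrays 8.75, 9.10 and 8.90, and the MC+HS arrays 8.74, 8.76 and 8.76. All vector arrays lay above all mock arrays, the vector arrays were close to each other, and mock replicate 3 stood far below its own group. In deposited signal this array held 8.9 intensity units, against 97.2 and 122 on the other mock arrays and 376 to 736 on the vector arrays. Over all 9 arrays the rise for both vectors together was 2.62 ± 0.45 on the log2 scale, 6.14-fold, with an adjusted p of 0.0272. Il18bp was the 1 member called of 12 in this comparison, where 1.04% of the 28257 probe sets tested were called. The call was lost when mock replicate 1, HS replicate 2, HS replicate 3 or any 1 of the MC+HS arrays was left out, with adjusted p of 0.0618 to 0.0920, while the difference stayed between 5.95-fold and 7.90-fold in those fits. With a pseudocount of 1 it was lost as well, at 8.74-fold and an adjusted p of 0.0899. With a pseudocount of 64 it was kept, at 3.88-fold and an adjusted p of 0.00584, so the size of the fold depends on the pseudocount.

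Taken singly with all 9 arrays, the Il18bp difference was 2.70 ± 0.52 for HS (adjusted p = 0.0610) and 2.54 ± 0.52 for MC+HS (adjusted p = 0.0917), both short of the threshold. It passed in each without HS replicate 1, with 2.78 ± 0.53 for HS (adjusted p = 0.0137) and 2.54 ± 0.47 for MC+HS (adjusted p = 0.0129). The size of the fold rested on mock replicate 3. Leaving it out, with HS replicate 1 kept, gave a rise of 3.86-fold for HS, 3.45-fold for MC+HS and 3.65-fold for both vectors together, with adjusted p of 0.00952, 0.0244 and 0.00628. The choroid plexus marker list was also lowest among mock arrays on mock replicate 3, at -1.26 against the mock mean, and its part in the Il18bp value was not tested.

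Il1rn encodes the IL-1 receptor antagonist, which occupies the receptor without signalling. On probe set 1451798_at the mock arrays read 5.98, 6.17 and 6.10, the HS arrays 6.21, 7.39 and 7.79, and the MC+HS arrays 7.20, 7.23 and 6.85. The vector arrays all lay above the mock arrays, but HS replicate 1 did so only narrowly. None of the mock arrays was above the 40th percentile here, so the probe set passed the filter only through vector arrays, and the size of its difference depends on the pseudocount. The difference with all 9 arrays was 1.05 ± 0.36 for HS and 1.01 ± 0.36 for MC+HS, with adjusted p of 0.530 and 0.690. When HS replicate 1 was left out, the probe set rose by 1.51 ± 0.21 for HS (adjusted p = 0.00193) and by 1.01 ± 0.19 for MC+HS (adjusted p = 0.0142). With no filter on dim probe sets the same differences had adjusted p of 0.00387 and 0.0255.

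The other probe sets of Il1rn did not follow this call. On 1425663_at the mock arrays spread from 5.40 to 7.11, the HS arrays read 8.12, 6.68 and 6.73, and the MC+HS arrays read 6.81 to 6.98. Mock replicate 1 lay above all MC+HS arrays, and the difference without HS replicate 1 was 0.46 ± 0.39 for HS (adjusted p = 0.661) and 0.63 ± 0.35 for MC+HS (adjusted p = 0.469). This probe set has the highest mean of the gene with all 9 arrays, and 1451798_at has it without HS replicate 1. On 1423017_a_at, which did not pass the filter, the mock arrays read 4.76 to 5.07 and the MC+HS arrays 5.67 to 6.33, while the HS arrays read 7.33, 6.16 and 4.81. Fitted with no filter and without HS replicate 1, its MC+HS difference was 1.20 ± 0.34 with an adjusted p of 0.144.

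Il1b encodes IL-1β, the secreted cytokine that starts much of the signalling of the family. Its probe set 1449399_a_at read 6.76, 7.12 and 7.46 on the mock arrays, 6.71, 8.0 and 7.92 on the HS arrays and 7.64, 7.85 and 7.70 on the MC+HS arrays. HS replicate 1 was the lowest of all 9 arrays, and every other vector array lay above all mock arrays. Over all 9 arrays the difference was 0.43 ± 0.33 for HS and 0.62 ± 0.33 for MC+HS, with adjusted p of 0.635 and 1.0. Il1b rose 1.80-fold for HS without HS replicate 1 (0.85 ± 0.20, adjusted p = 0.0419), a call that was lost with no filter (adjusted p = 0.0778) and with a replicate block (adjusted p = 0.0653). For MC+HS it was 1.53-fold higher, at 0.62 ± 0.18, with an adjusted p of 0.0999, and for both vectors together it rose 1.66-fold (0.73 ± 0.16, adjusted p = 0.0236).

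**Figure D1:**
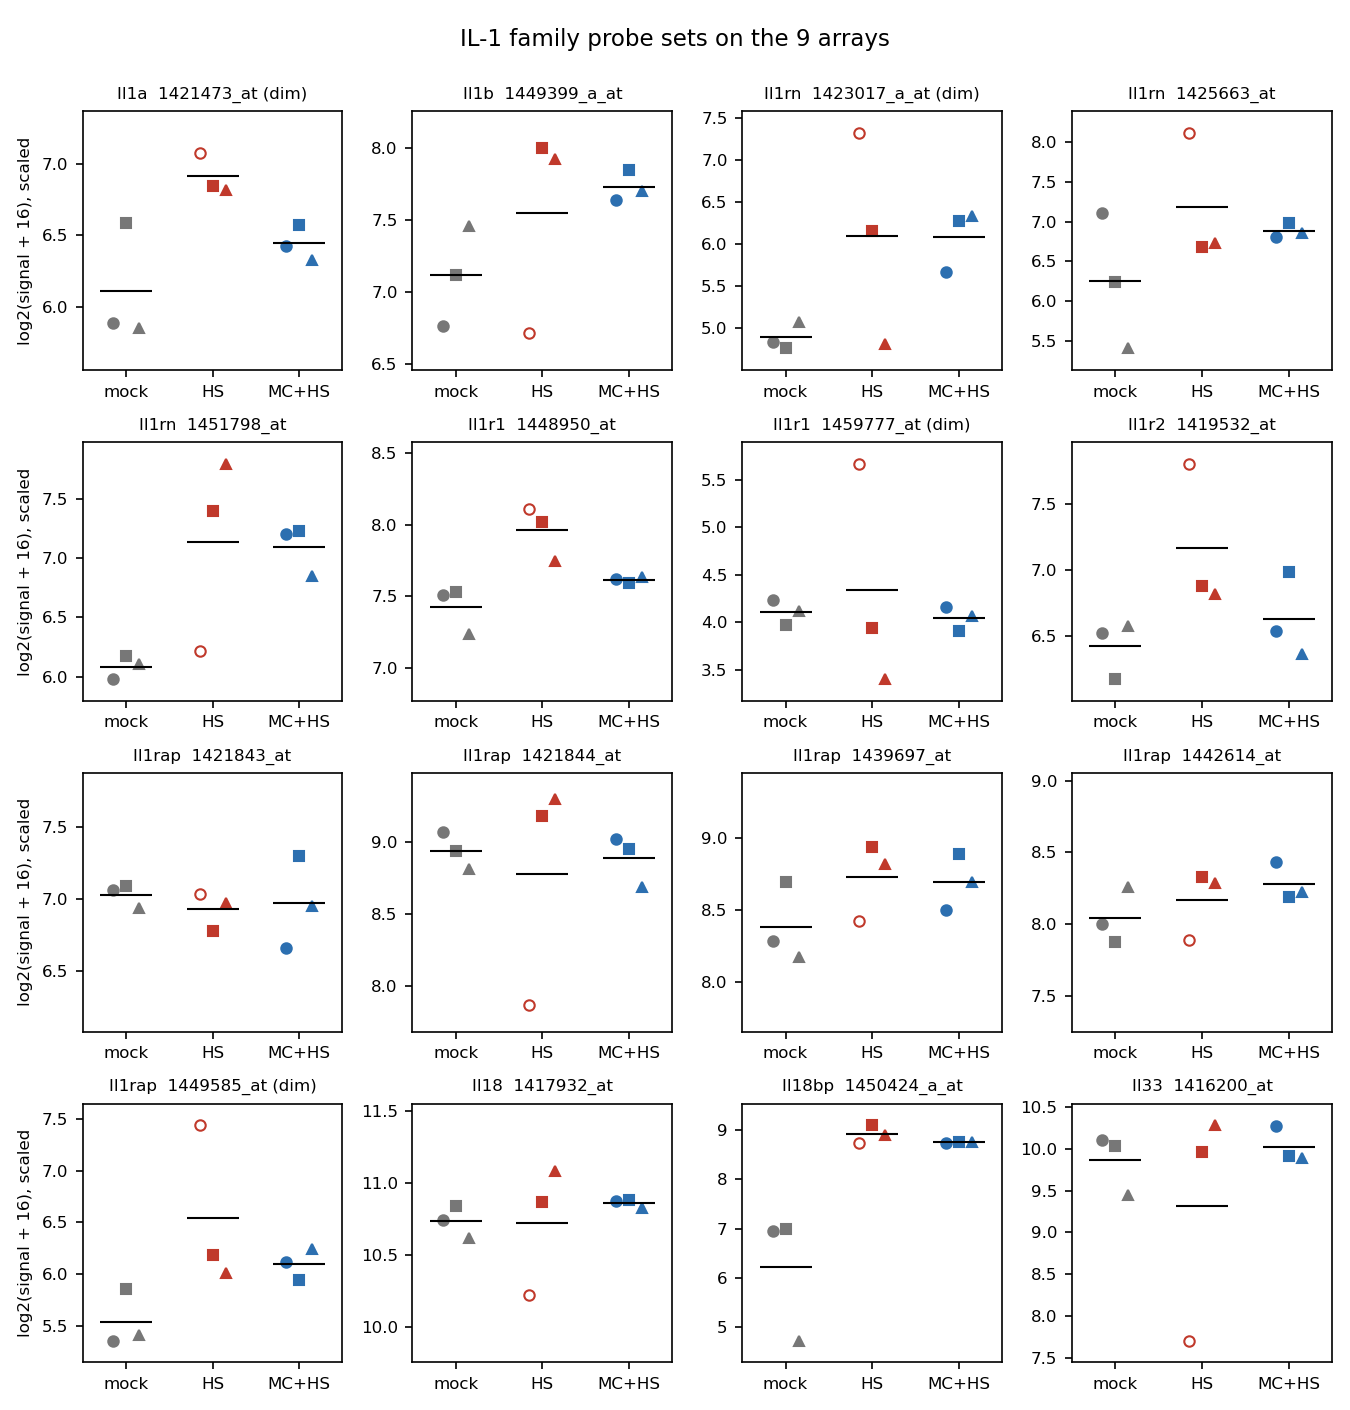
Scaled log2(signal + 16) of all 16 member probe sets on the 9 arrays, 1 panel per probe set, with a circle, square or triangle for replicates 1, 2 and 3, an open red circle for HS replicate 1 and a black line for each group mean. Il18bp reads 8.74 to 9.10 on the vector arrays against 4.71 to 6.99 on the mock arrays, and the open circle is the lowest value for Il1b, Il18 and Il33.

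Il1a encodes IL-1α, which is active as made and is released from damaged cells. Its probe set 1421473_at was dim on all mock arrays, at 5.89, 6.59 and 5.86, and read 7.07, 6.84 and 6.82 on the HS arrays and 6.43, 6.57 and 6.33 on the MC+HS arrays. The HS arrays lay above the mock arrays and the MC+HS arrays overlapped them. With no filter the HS difference was 0.80 ± 0.24, with an adjusted p of 0.490 over all probe sets, and without HS replicate 1 it was 0.72 ± 0.26 with an adjusted p of 0.268. Il1a and Il1b are neighbours on chromosome 2, and Il1rn lies on the same chromosome.

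Il18, the IL-18 precursor gene, was bright and nearly level. Its probe set 1417932_at read 10.62 to 10.84 on the mock arrays and 10.83 to 10.88 on the MC+HS arrays, and 10.22, 10.87 and 11.08 on the HS arrays. The MC+HS difference was 0.12 ± 0.27 with all 9 arrays and 0.12 ± 0.09 without HS replicate 1, with 95% intervals of -0.48 to 0.73 and of -0.08 to 0.33. The message for the IL-18 binding protein differed from mock in MC+HS by 2.54 ± 0.52 on the log2 scale with all 9 arrays. Without mock replicate 3 that difference was 1.79. The changes of Il18 and Il18bp were not compared in a test. For HS without replicate 1 the Il18 difference was 0.24 ± 0.11 with an adjusted p of 0.329. With all 9 arrays the HS mean was 10.725 against 10.735 in mock, with a limma adjusted p of 0.987.

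Il33, the gene of the nuclear alarmin IL-33, was also bright. Probe set 1416200_at read 10.11, 10.04 and 9.45 on the mock arrays, 7.70, 9.96 and 10.29 on the HS arrays and 10.27, 9.91 and 9.90 on the MC+HS arrays. HS replicate 1 stood far below every other array, and the remaining groups overlapped. The HS difference was -0.55 ± 0.59 with all 9 arrays and 0.26 ± 0.20 without that array, with adjusted p of 0.670 and 0.629. The astrocyte and oligodendrocyte marker lists were at -1.91 and -1.18 against the mock mean on HS replicate 1. Lists of neurons, striatal medium spiny neurons and endothelium were low there as well, at -0.92, -2.07 and -0.71. What part cell content or the quality of the array had in its low Il33 value was not tested.

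Il1r1 encodes the signalling receptor of IL-1. Probe set 1448950_at read 7.51, 7.53 and 7.24 on the mock arrays, 8.11, 8.02 and 7.75 on the HS arrays and 7.62, 7.59 and 7.63 on the MC+HS arrays. The 3 groups did not overlap and stood in the order mock, MC+HS and HS, with steps that did not pass after adjustment. The difference from mock was 0.53 ± 0.15 for HS (adjusted p = 0.304) and 0.19 ± 0.15 for MC+HS (adjusted p = 1.0). Between the purifications it was -0.34 for MC+HS minus HS, with a 95% interval of -0.68 to -0.0031 and an adjusted p of 0.728. Its second probe set, 1459777_at, was not above the 40th percentile on any array, and read 5.67 on HS replicate 1 and 3.40 to 4.24 on the other 8.

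Il1r2 encodes the decoy receptor, which binds IL-1 and does not signal. On 1419532_at the mock arrays read 6.52, 6.17 and 6.57, the HS arrays 7.80, 6.88 and 6.82, and the MC+HS arrays 6.54, 6.98 and 6.36. The HS arrays lay above the mock arrays, HS replicate 1 the furthest, and MC+HS overlapped both groups. None of the mock arrays was above the 40th percentile for this probe set. It therefore passed the filter only through vector arrays, and the size of its difference depends on the pseudocount. The HS difference of 0.75 ± 0.30 with all 9 arrays (adjusted p = 0.635) became 0.43 ± 0.25 without HS replicate 1 (adjusted p = 0.489).

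Il1rap, the shared accessory chain of the IL-1 and IL-33 receptors, had 4 tested probe sets, and 1421844_at was the brightest. It read 9.07, 8.94 and 8.82 on the mock arrays, 7.87, 9.18 and 9.30 on the HS arrays and 9.03, 8.95 and 8.69 on the MC+HS arrays. Only HS replicate 1 left the common range by a wide margin, downwards, and the sign of the HS difference turned with it, from -0.16 ± 0.34 with all 9 arrays to 0.30 ± 0.13 without it. Over the 4 probe sets the MC+HS difference ran from -0.06 to 0.31, and the HS difference without replicate 1 from -0.15 to 0.50, the lowest adjusted p for HS being 0.190. The remaining probe set, 1449585_at, was below the filter and read 5.36 to 5.86 on the mock arrays against 5.94 to 7.44 on the vector arrays.

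Counted over the 12 tested probe sets with all 9 arrays, limma called 0 for HS and 0 for MC+HS against mock, where 0.775% and 0.58% of all probe sets were called. At an unadjusted p under 0.05 the counts were 4 and 2, against 1886 and 1383 of all 28257 probe sets. The fit without HS replicate 1 called 3 for HS, those of Il18bp, Il1rn and Il1b, and 2 for MC+HS, those of Il18bp and Il1rn, with the Il1rn probe set tested because of its vector arrays, against 3.32% and 3.34% of 27973 probe sets. The same 3 were called for both vectors together, against 4.35%. The HS and mock arrays did not overlap for 4 of the 12 with all 9 arrays, and neither did the MC+HS and mock arrays for 4, against 14.8% and 18.6% of all probe sets. For both vectors together the count was 3, against 6.38%, and 4 without HS replicate 1, against 11.5%. For HS without replicate 1 the count was 9 of 12 against 35.6%, so that a non-overlapping pair of HS arrays was common on the whole array. These counts and the medians below include Il1rn 1451798_at and Il1r2 1419532_at, which passed the filter only through vector arrays. The median difference of the 12 was 0.44 for HS and 0.22 for MC+HS without that array, beside 0.03 and -0.02 over all tested probe sets.

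**Figure D2:**
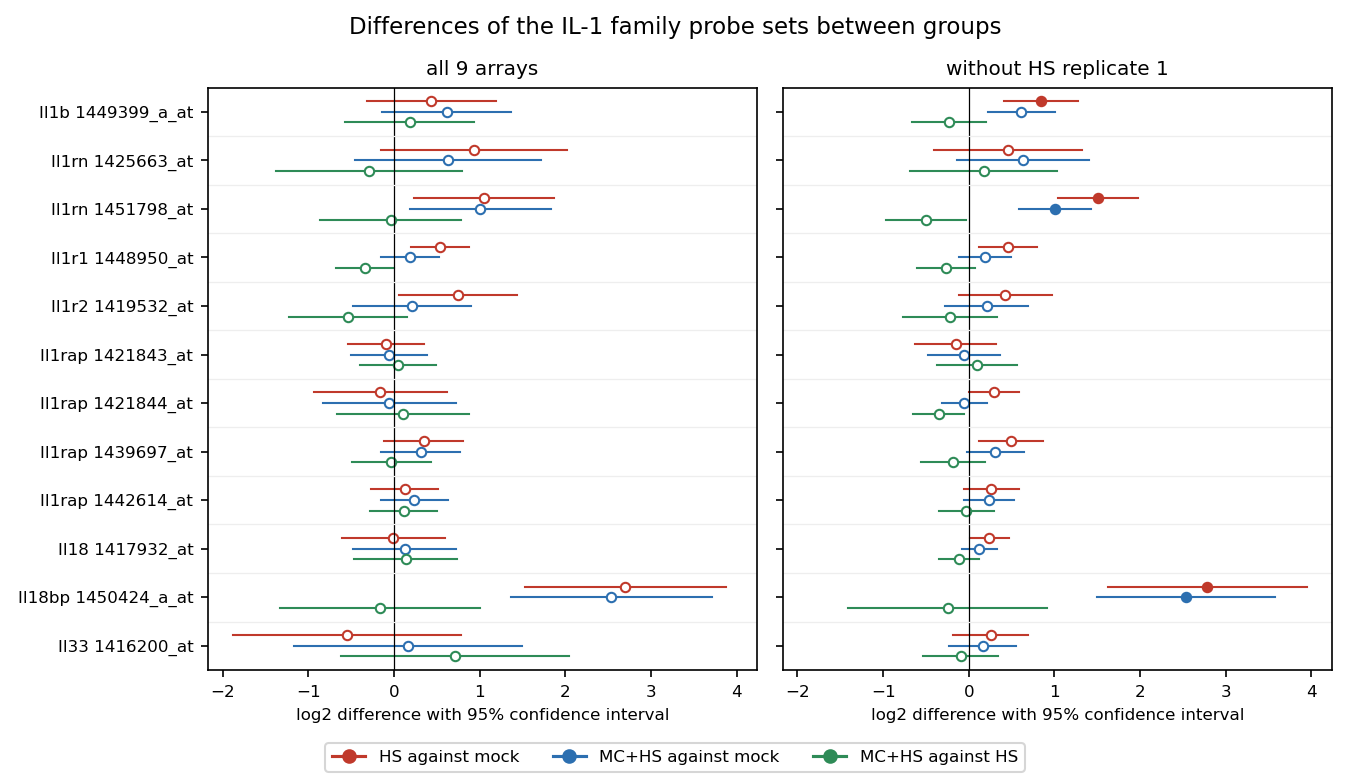
Log2 differences of the 12 tested member probe sets with 95% intervals, with all 9 arrays and without HS replicate 1 in separate panels, for HS against mock (red), MC+HS against mock (blue) and MC+HS against HS (green), filled where the adjusted p is under 0.05. Without HS replicate 1 the filled points are Il18bp at 2.78 and 2.54, Il1rn at 1.51 and 1.01 and Il1b at 0.85.

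The direct comparison of the purifications is the one the series was set up for. limma called 0 of the 12 member probe sets with all 9 arrays and 0 without HS replicate 1, against 0% and 0.00357% of all probe sets. Unadjusted p was under 0.05 for 1 and 2 of the 12, against 847 of 28257 and 2140 of 27973 over all probe sets. For Il18bp the MC+HS minus HS difference was -0.16, with a 95% interval of -1.33 to 1.0, so differences of 1.0 on the log2 scale in either direction lay within it. Without HS replicate 1, Il1rn 1451798_at was -0.50 (interval -0.97 to -0.03, adjusted p = 0.625), Il1rap 1421844_at was -0.35 (interval -0.65 to -0.06, adjusted p = 0.589) and Il1b was -0.23 (interval -0.67 to 0.20). In that setting 10 of the 12 differences, from 8 genes, were negative, that is lower in MC+HS, against 6 of the 12 with all 9 arrays. The share of negative differences over all probe sets was not counted. Their median difference moved the same way, from 0.19 with all 9 arrays to -0.05 without HS replicate 1. The median of the 12 moved from 0.004 to -0.20. Without that array the groups did not overlap for 6 of the 12, against 24.3% of all probe sets. With all 9 arrays they did not overlap for 1, Il1r1, against 8.02%.

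The other genes of the pathway were read by list, with 1 probe set for each gene. limma called 0 of 7 measured genes among the other IL-1 family ligands and receptors against mock, with all 9 arrays and without HS replicate 1. Of the 12 measured receptor adaptors and kinases 1 was called without that array. This was Myd88, the adaptor that all signalling IL-1 family receptors share, which without HS replicate 1 rose by 1.18 ± 0.17 for HS (adjusted p = 0.00262) and 0.97 ± 0.16 for MC+HS (adjusted p = 0.00518). limma called 0 adaptors or kinases with all 9 arrays. Without HS replicate 1, unadjusted p values were under 0.05 for 1 of the 7 for each vector. Of the 12 adaptors and kinases they were so for 4 for HS and 1 for MC+HS. Over all 27973 probe sets of that fit 3968 and 3969 were under 0.05. With all 9 arrays the counts were 0 of the 7 and 1 of the 12 for each vector, against 1886 and 1383 of 28257 probe sets. Over all genes 3.83% and 3.26% were called higher for HS and MC+HS without HS replicate 1.

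Of 10 measured genes of inflammasomes and cytokine processing, 4 rose for each vector without HS replicate 1 and 0 fell. Over all genes 3.83% were called higher for HS and 3.26% for MC+HS in that fit. Casp4, the mouse caspase-11 that senses bacterial lipopolysaccharide inside cells, rose by 4.03 ± 0.25 for HS and 3.49 ± 0.22 for MC+HS, from a mock mean of 4.70 that lay close to the log2 of the pseudocount. Gsdmd, the pore-forming protein that inflammatory caspases cut, rose by 1.59 ± 0.29 and 1.13 ± 0.26, with adjusted p of 0.0102 and 0.0375. Pycard, the inflammasome adaptor ASC, rose by 1.13 ± 0.21 and 1.08 ± 0.19, and Casp8 rose by 0.98 ± 0.14 and 0.86 ± 0.13. Casp1, the caspase that cuts the IL-1β and IL-18 precursors, and Nlrp3, an inflammasome sensor, were singled out after their values were seen. Casp1 was 0.93 ± 0.23 and 0.77 ± 0.21 higher with adjusted p of 0.0606 and 0.0829, and Nlrp3 differed by 0.18 ± 0.35 and 0.21 ± 0.32. Over all 9 arrays 2 genes of the list, Casp4 and Gsdmd, were called for HS and 1, Casp4, for MC+HS. The shares of all genes called higher were then 0.893% and 0.69%.

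Genes that IL-1 is known to induce passed the test in larger numbers. Of 13 measured without HS replicate 1, 11 rose for HS and 11 for MC+HS and 0 fell, where 3.83% and 3.26% of all genes were called higher. The median differences were 1.83 and 1.29 against 0.05 and 0.01 over all genes. Ccl2, a chemokine that attracts monocytes, rose by 4.37 ± 0.31 for HS and 3.37 ± 0.28 for MC+HS. Saa3, an acute phase protein, rose by 3.53 ± 0.33 and 3.71 ± 0.29. The neutrophil chemokine Cxcl1 rose by 2.03 ± 0.15 and 1.4 ± 0.13, and the adhesion molecules Icam1 and Vcam1 by 2.28 ± 0.19 and 1.21 ± 0.13 for HS and by 1.70 ± 0.17 and 0.84 ± 0.12 for MC+HS. Over all 9 arrays 4 of 14 were called for HS and 3 of 14 for MC+HS, against 0.893% and 0.69% of all genes. The 4 for HS were Il6, Cxcl2, Ccl2 and Icam1, with mock means of 4.21, 5.57, 6.60 and 7.25. Il6 lay close to the log2 of the pseudocount in mock. Genes this dim in mock can pass the filter through vector arrays alone, and the size of their differences depends on the pseudocount. These genes respond to other inflammatory signals as well, and which signal moved them was not tested.

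**Figure D3:**
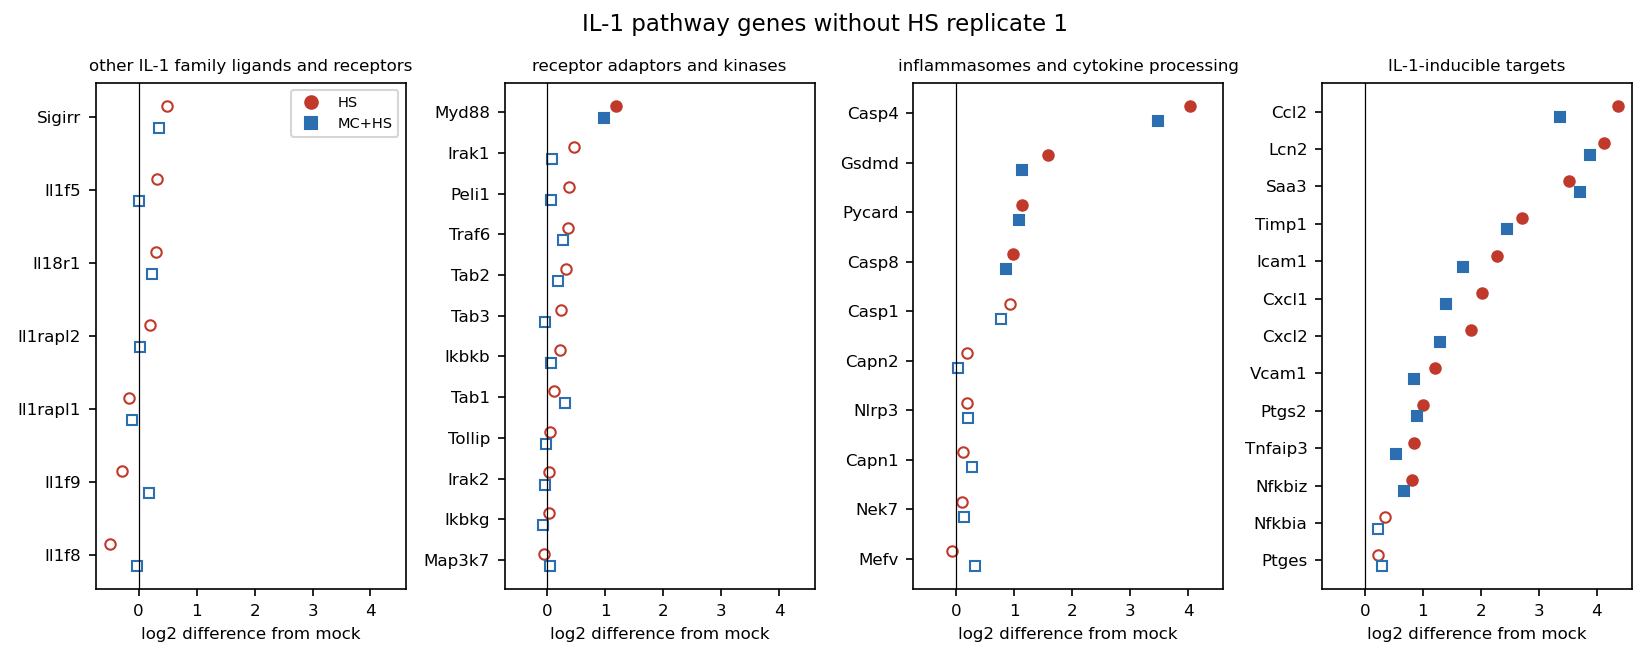
Log2 differences from mock, without HS replicate 1, of the measured genes in 4 pathway lists, with red circles for HS and blue squares for MC+HS, filled where the adjusted p is under 0.05. The 11 filled genes of the IL-1-inducible list and the 4 of the inflammasome list stand to the right of 0, while the list of other family members has no filled point.

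The mean of the infiltrating monocyte markers was higher than on the mock arrays on the vector arrays other than HS replicate 1. The mean of 8 infiltrating monocyte markers lay 1.27 to 1.36 above the mock mean on HS replicates 2 and 3 and 1.06 to 1.21 above it on the MC+HS arrays, against -0.21 to 0.39 on the mock arrays and 0.16 on HS replicate 1. Of these 8, 3 rose for each vector without HS replicate 1 (Plac8, Chil3 and Ccr1), where 3.83% and 3.26% of all genes were called higher. Ccr2, Chil3 and Ccr1 were not above the 40th percentile on any mock array. The median of the 8 without HS replicate 1 was 0.71 for each vector, below the mean. With all 9 arrays Vcan, F13a1, Ms4a7 and Fn1 differed by -0.19 to -0.15 for HS. For MC+HS Vcan and F13a1 were nearly level, with means of 8.77 and 7.73 against 8.70 and 7.69 in mock. Ms4a7 and Fn1 were higher in MC+HS without being called, with means of 7.73 and 10.71 against 7.20 and 10.51 in mock. The mean of 6 measured neutrophil markers lay 0.73 to 0.89 above mock on HS replicates 2 and 3 and 0.37 to 0.67 above it on the MC+HS arrays, with S100a8 and S100a9 called and Mpo, Elane, Camp, Cxcr2 and Mmp8 below the filter. S100a8 and S100a9 were not above the 40th percentile on any mock array, the granule protein genes Ngp and Ltf differed by -0.29 and -0.30 for HS and by -0.05 and -0.14 for MC+HS, and the median of the 6 was 0.39 and 0.36. The mean of 10 homeostatic microglia markers lay lower on the vector arrays, at -0.63 to -0.34 on MC+HS and -0.46 to -0.40 on HS replicates 2 and 3. On HS replicate 1 this mean was at -1.32. Without that array 4 of 10 fell for each vector, where 0.401% and 0.446% of all genes were called lower. The median of the 10 was then -0.19 for each vector. Tmem119 and P2ry13 went the other way, with all-array means of 10.39 and 8.86 in HS and 10.32 and 8.97 in MC+HS, against 10.10 and 8.84 in mock. With all 9 arrays the calls for HS and MC+HS were 2 and 2 of the monocyte markers and 2 and 1 of the neutrophil markers, all higher. Those of the microglia markers were 1 and 2, all lower. Over all genes 0.893% and 0.69% were called higher and 0.0375% and 0.0225% lower. The part of these cell types in the member values was not tested.

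**Figure D4:**
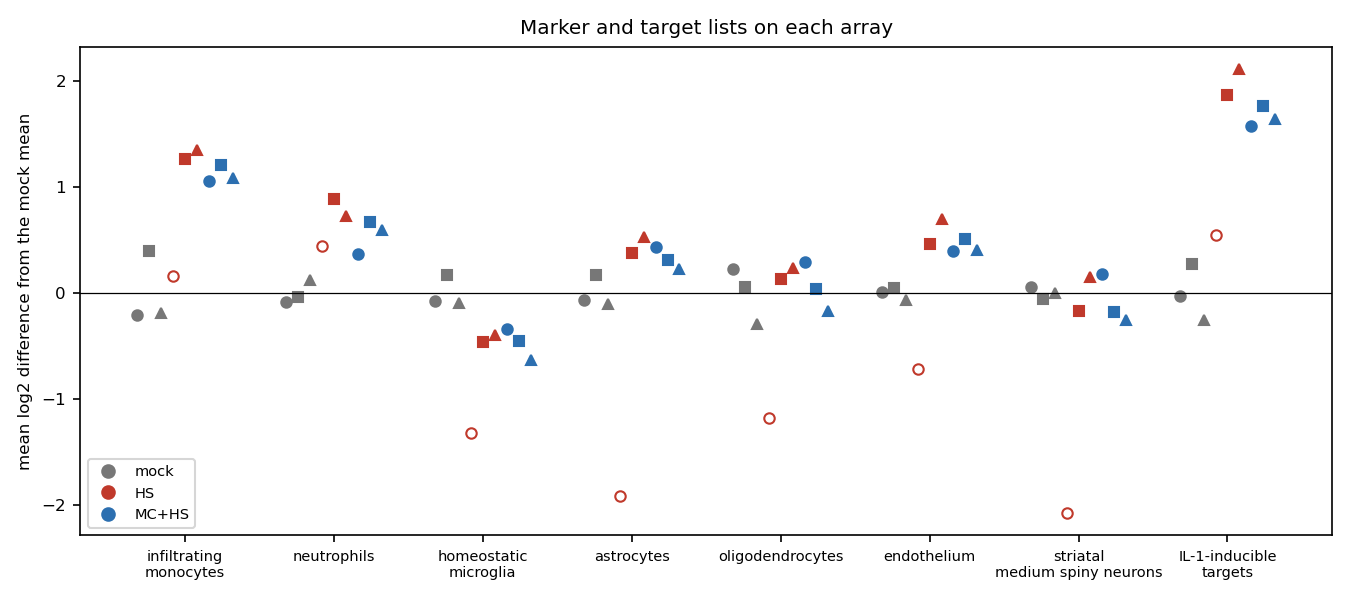
Mean log2 difference from the mock mean on each array for 8 gene lists, with a circle, square or triangle for replicates 1, 2 and 3 and an open red circle for HS replicate 1. Infiltrating monocyte markers lie at 1.06 to 1.36 on the 5 other vector arrays, and the open circle lies at -2.07 for striatal medium spiny neurons and -1.91 for astrocytes.

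The genes with the pattern most like each called member were found by the root mean square difference of their log2 differences from the mock mean, over 8 arrays and 13223 genes. For Il1rn they were Serpinb9, Znfx1 and Cdh19, at 0.11 to 0.13, where the median gene stood at 0.97. For Il18bp they were Oas1b, Ifi207 and Ms4a6c, at 0.38 to 0.45 against a median of 2.17. For Il1b they were Tnfrsf1b, Nfkbiz and Relb, at 0.12 to 0.13 against a median of 0.61. These values describe likeness over arrays that share the same groups, and Oas1b and Ifi207 belong to multigene families whose probe sets can bind near-identical relatives.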

How the data were processed

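Tissue RNA from each of 9 mice was hybridised to its own array. Per the submitters' processing notes the authors used GCOS 1.4.0.036, and the deposited table gives a linear intensity for every probe set. Summarisation and scaling are not given in the sources used here. Median signals ran from 147 to 263 intensity units, and the number of arrays limits the precision. The labels call the mice of a group biological replicates.

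A pseudocount of 16 was added before log2, so that folds of dim genes are understated. Arrays were then shifted to a common median, HS replicate 3 by the most (0.66). After removal of 64 control probe sets, the filter on dim signals kept 28257 of 45101, or 27973 without HS replicate 1. No detection calls were used, so dim probe sets were given no bound. Platform annotation named 1 gene for 34958 probe sets, several for 932 and none for 9211. Entrez identifiers tied 34754 of them to RefSeq genes of GRCm38.p6. In lists each gene was read from its probe set with the highest mean. The RefSeq promoter table held all 10 members.

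Contrasts came from limma 3.58.1 (R 4.3.3, statmod 1.5.0), using lmFit, then eBayes with a trend on mean signal. Group was the only term. P values were two-sided, adjusted by Benjamini-Hochberg over all probe sets, and called under 0.05. Named genes were all members, up to 5 called genes per pathway list by the smallest p, and the 3 genes most like each called member. The members and lists were chosen with earlier results of these data known. The scripts were tested on simulated data. Alternatives were pseudocounts of 1 and 64, other filters and normalizations, other model settings, a replicate block and leaving out each array.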

Additional observations from a re-analysis of the deposited data

How the results depend on the processing

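The member probe sets called with all 9 arrays numbered 0 for HS, 0 for MC+HS, 1 for both vectors and 0 between the purifications. Leaving out 1 array at a time gave 0 to 3 for HS, 0 to 2 for MC+HS, 0 to 3 for both vectors and 0 to 0 between the purifications, with the highest counts without HS replicate 1. Over all probe sets the calls ran from 67 to 930, 10 to 934, 106 to 1217 and 0 to 1 in these fits, against 219, 164, 295 and 0 with all arrays. A pseudocount of 64 gave 1 member for HS and 1 for MC+HS, a pseudocount of 1 gave 0 for both vectors, no scaling gave 1 for HS, and a fit of only the arrays compared gave 2 for MC+HS. That last fit called 727 of all probe sets, and 15 for HS. With no filter MC+HS had 110 calls, with no scaling 69, and with the filter at the 60th percentile HS had 136. Array quality weights gave 8, 3, 6 and 2 members and 7776, 2146, 3532 and 6536 calls over all probe sets, and turned Il1rap 1421844_at to 0.22 for HS and to -0.32 between the purifications; the iteration for the weights stopped before it converged. The cause of these shifts was not tested. Same-numbered replicates had correlations of their deviations from -0.168 to 0.287, and differently numbered ones from -0.318 to 0.159. The highest were same-numbered, at 0.287 for replicates 3 and 0.261 for replicates 1 of mock and MC+HS. The labels give the numbers no further meaning, so the main fit did not pair the mice by number. The replicate block called 0, 0, 1 and 0 member probe sets and 148, 95, 250 and 0 of all probe sets. Further settings were added after seeing the data, both without HS replicate 1. There the replicate block gave 2 members for HS, 2 for MC+HS and 3 for both vectors, and no filter gave 2, 2 and 3.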
